A study of Homo sapiens with 12 samples.

Results

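The transcripts of 6 growth factor receptors and 4 ligands of the epidermal growth factor receptor were followed in stressed colorectal carcinoma cells. The receptors were EGFR, ERBB2, ERBB3, MET, IGF1R and INSR, and the ligands were AREG, EREG, TGFA and HBEGF. These 10 genes, of 60708 listed in the count tables, were taken by their symbols, with earlier results of these data known. Each symbol matched 1 gene in both tables, and all 10 passed the filter on low counts in both comparisons. The cells were HCT116, an established human colorectal carcinoma cell line whose genotype is labelled WT. OA cells received oligomycin A, an inhibitor of the mitochondrial ATP synthase, and TN cells received tunicamycin, which blocks protein N-glycosylation in the endoplasmic reticulum (ER), each at 5 µg/mL by the sample labels and for 24 h. Each stressor had its own cells treated with DMSO, called OActrl and TNctrl here. With 3 biological replicates per group this gave 12 libraries, all from a single cell line, and p-values measure the spread between these replicates.

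EGFR, ERBB2 and ERBB3 belong to the ERBB family of receptor tyrosine kinases. A ligand bound outside the cell brings receptors together, and the kinase domains inside then start the RAS to ERK and the PI3K to AKT cascades. Amphiregulin (AREG), epiregulin (EREG), transforming growth factor alpha (TGFA) and heparin-binding EGF-like growth factor (HBEGF) are made as membrane-anchored precursors, and proteases such as ADAM17 cut them free. Colon epithelial cells use these ligands on themselves and on their neighbors during growth and repair. MET is the receptor of hepatocyte growth factor, and IGF1R and INSR are the receptors of insulin-like growth factors and of insulin. All of these proteins enter the ER while they are made, and the receptors receive N-glycans there.

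Library totals ranged from 9884124 to 24983573 counts, and the 10 genes together took between 0.0766% and 0.248% of them. Epithelial markers were present, with KRT8 between 1500 and 2930 CPM (counts scaled to library size) and EPCAM between 80.2 and 301 CPM, while CEACAM5 had 0 counts in all 12 libraries, KRT20 at most 55 and VIL1 at most 3. Of 5 markers of leukocytes, endothelial cells and fibroblasts, CD3E had 0 counts, PTPRC, PECAM1 and COL1A2 at most 5, and COL1A1 between 15 and 124. Their summed level was 1.19 to 2.19 CPM in OActrl, 4.25 to 12.5 CPM in OA, 1.42 to 3.78 CPM in TNctrl and 1.75 to 4.11 CPM in TN. It was mostly COL1A1, which reached 12.4 CPM, while each of the others was at most 0.415 CPM. Some libraries also stood apart within their group. The 7SL RNA gene RN7SL1 took 17.9% of the counts of OA replicate 2, against 8.4% and 12.5% in the other OA libraries and 6.02% to 8.11% in OActrl. In TN it took 9.22% to 13.3%, and in TNctrl 6.23% to 7.50%. The dependence of gene levels on GC content also differed, and its correlation across genes with each library's deviation from the group mean ran from -0.69 in OActrl replicate 1 to 0.68 in TN replicate 1.

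AREG and EREG are neighbors on chromosome 4, where both are read from the plus strand and lie 56386 bases apart. EREG spans chr4:74365145-74388749 and AREG spans chr4:74445136-74455005 in GRCh38. HBEGF lies on chr5:140332843-140346603 and TGFA on chr2:70447284-70554193, both on the minus strand. The 250 bases upstream of the annotated start are shown for AREG and HBEGF, the ligands that rose in OA, and for EREG, the neighbor of AREG that did not pass the test. They are from RefSeq (GRCh38.p14), written 5′ to 3′ on the gene's strand. Capitals mark matches on either strand to the CCAAT box, to TGANTCA (the AP-1 motif), to TGATGNAAT (a composite motif of C/EBP and ATF factors), to CACGTG (an E-box), to TGACGTCA (the cAMP response element) or to TATAAA. The last 2 were added to the search after the windows were seen.
AREG, chr4:74444886-74445135, plus strand: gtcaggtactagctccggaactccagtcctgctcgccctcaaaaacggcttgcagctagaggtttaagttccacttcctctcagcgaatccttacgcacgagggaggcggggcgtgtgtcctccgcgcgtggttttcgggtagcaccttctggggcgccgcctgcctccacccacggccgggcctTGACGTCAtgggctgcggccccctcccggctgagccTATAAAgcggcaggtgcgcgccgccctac
EREG, chr4:74364895-74365144, plus strand: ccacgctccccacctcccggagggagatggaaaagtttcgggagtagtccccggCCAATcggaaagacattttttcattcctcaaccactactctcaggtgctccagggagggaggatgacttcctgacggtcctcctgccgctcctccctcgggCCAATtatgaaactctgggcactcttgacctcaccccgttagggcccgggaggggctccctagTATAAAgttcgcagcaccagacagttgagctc
HBEGF, chr5:140346604-140346853, minus strand: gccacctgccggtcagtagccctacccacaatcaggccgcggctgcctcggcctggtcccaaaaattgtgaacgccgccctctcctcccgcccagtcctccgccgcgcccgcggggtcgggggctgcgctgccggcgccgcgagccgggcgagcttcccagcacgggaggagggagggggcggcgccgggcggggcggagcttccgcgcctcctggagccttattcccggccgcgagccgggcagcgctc
The AREG window holds TGACGTCA 65 bases before the start, and TATAAA 29 bases before it. EREG has CCAAT 196 and 95 bases before its start and TATAAA 32 bases before it. None of these letters occurred in the windows of HBEGF, TGFA, MET, IGF1R and INSR. ERBB2 had CCAAT on the minus strand 243 bases and TGANTCA, read as TGATTCA, 222 bases before its start. Of the 2 EGFR windows, the one at the upstream start had no match, and the other had TGANTCA 232 and 136 bases and TATAAA 146 and 36 bases before its start. Among 35116 promoter windows of the same length, 1.65% held TGACGTCA, 10.7% TATAAA, 32% CCAAT, 6.57% TGANTCA, 6.34% CACGTG and 0.888% TGATGNAAT. A match describes the letters in the window and is no evidence of a bound factor.

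Per kilobase of annotated exon, the ligand AREG and the receptor IGF1R stood at the 2 ends of the range in every group. In OActrl, AREG was at 70.5 ± 18.1 CPM per kilobase (SD, n = 3), EREG at 49.7 ± 29.3 and MET at 44.3 ± 2.38, and these neighbors in the order overlapped. TGFA followed at 10.4 ± 0.986 and ERBB2 at 6.71 ± 0.806, each apart from the next. ERBB3 at 2.85 ± 0.146, HBEGF at 2.7 ± 0.224, INSR at 2.43 ± 0.236 and EGFR at 2.26 ± 0.677 CPM per kilobase overlapped with their neighbors, and IGF1R was below all of them at 0.331 ± 0.0357. TNctrl had AREG at 103 ± 40.5, EREG at 84.9 ± 43.3 and MET at 51.5 ± 1.92 CPM per kilobase at the top, again overlapping. The ligand transcripts AREG, EREG and TGFA were thus each above EGFR, the receptor they share, in the unstressed cells of both experiments.
In OA, AREG reached 365 ± 97.2 CPM per kilobase and no longer overlapped with EREG at 73.0 ± 57.4. HBEGF moved from the range of ERBB3, INSR and EGFR to 11.7 ± 7.03 CPM per kilobase, where it overlapped with TGFA and ERBB2. In TN, AREG was at 244 ± 75.9 CPM per kilobase, and EGFR at 1.43 ± 0.240 was below every other member except IGF1R at 0.278 ± 0.104. IGF1R rested on 30 to 123 counts per library, the thinnest of the 10.

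The first question was which receptor and ligand transcripts changed with each stressor. With OA, the ligands AREG and HBEGF rose, AREG by 5.18-fold and HBEGF by 4.31-fold in the fitted model. TGFA lay above its DMSO libraries in every replicate without passing the test, and EREG and all 6 receptors overlapped with DMSO. In bulk RNA a change in the share of cells that express a gene and a change in RNA per cell cannot be told apart. Thus 2 of 10 members passed an adjusted p of 0.05 (quasi-likelihood test of edgeR, adjusted by Benjamini-Hochberg across all tested genes), beside 4.48% of the 14681 genes tested. All OA libraries were above all OActrl libraries for 3 members, beside 16.3% of genes, and below them for 0 members, beside 15.5%.

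AREG stood at 148, 88.9 and 111 CPM in OActrl replicates 1, 2 and 3 and at 706, 677 and 416 CPM in the OA replicates. The lowest OA library was well above the highest DMSO library. The mean went from 116 ± 29.6 to 600 ± 160 CPM (SD, n = 3 per group), with a log2 fold change of 2.37 (SE 0.31, 95% confidence interval 1.66 to 3.09) and an adjusted p of 0.0157 in edgeR. The p ranked 43 among all genes tested. The log2 fold change was 2.22 to 2.63 with any single library left out, but the adjusted p was 0.0773, 0.0933 and 0.132 without OActrl replicate 1, 2 and 3. In those 3 fits only 5, 3 and 3 genes of all tested were called.

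HBEGF was scarce in DMSO, at 7.34, 8.26 and 8.64 CPM, and at 26.8, 58.8 and 19.2 CPM in OA. Every OA library lay above every DMSO library, and OA replicate 2 was the highest by far. The log2 fold change was 2.11 (SE 0.43, interval 1.13 to 3.09) with an adjusted p of 0.0384. Without OA replicate 2 it was 1.51 with an adjusted p of 0.0247. This library had the largest RN7SL1 share and 12.5 CPM of markers of other cells, nearly all of it COL1A1. The HBEGF call was lost without OActrl replicate 1, 2 or 3 (2.07, 2.16 and 2.15, adjusted p 0.139, 0.131 and 0.180) and without OA replicate 3 (2.39, adjusted p 0.0581). These log2 fold changes were close to or above that of all libraries. Whether RN7SL1 or the other markers had a part in the change was not tested, and with scaling to total counts, which includes RN7SL1, the log2 fold change was 2.16 for AREG and 1.81 for HBEGF.

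TGFA was at 54.4, 53.9 and 45.8 CPM in OActrl and at 114, 75.0 and 96.9 CPM in OA. The groups did not overlap, yet the log2 fold change of 0.89 (SE 0.25, interval 0.32 to 1.46) had an adjusted p of 0.0795. Without OA replicate 2 it was 1.04 with an adjusted p of 0.0352. Without any other single library it did not pass, at 0.73 to 0.98 with adjusted p of 0.103 to 0.336. With the replicate number as a block TGFA was at 0.88 (adjusted p 0.0114 in edgeR), beside 26.7% of all genes called. With GC content corrected by a per-library offset it was 0.99 (adjusted p 0.0102), beside 16.4%.
EREG, which binds EGFR and ERBB4, was at 467, 138 and 247 CPM in OActrl and at 796, 234 and 222 CPM in OA. Replicate 1 was the highest in both groups, and OA replicates 2 and 3 lay inside the DMSO range. The log2 fold change was 0.55 (SE 0.59, interval -0.80 to 1.91; adjusted p 0.602), and without OA replicate 1 it was -0.33.

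**Figure D1:**
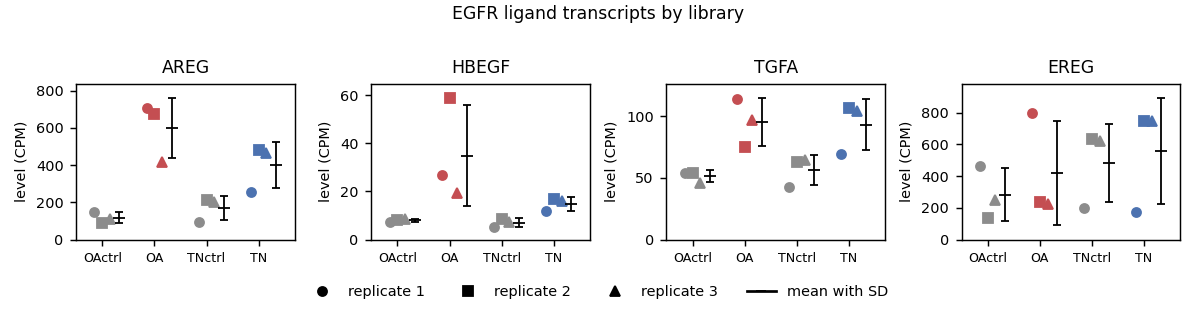
Level in CPM (vertical axes, each starting at 0) of the 4 EGFR ligand transcripts in every library of OActrl, OA, TNctrl and TN, with markers for replicates 1 to 3 and the mean with SD beside them. AREG, HBEGF and TGFA lie higher in every treated library than in every DMSO library of the same stressor, whereas EREG spreads from 138 to 796 CPM in the OA experiment and overlaps.

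With TN, no member passed the test in the fit of the 2 groups alone, beside 6.99% of the 14432 genes tested with edgeR. At an unadjusted p under 0.05 there were 4 members (EGFR, AREG, TGFA and HBEGF), beside 24.3% of all genes, and DESeq2 called 2, AREG and HBEGF, beside 6.17% of the 28184 genes to which it gave a p. Libraries with the same replicate number deviated together in this experiment (correlations across genes of 0.64, 0.41 and 0.43), although the number did not separate replicates 2 and 3, whose crossed pairs gave 0.38 and 0.44. With the replicate number as a block, AREG, TGFA and HBEGF rose and EGFR fell, which is 4 of 10 members, beside 27.1% of all genes called in that fit. TN libraries lay wholly above TNctrl for 4 members, the same 3 ligands and INSR, beside 15.9% of genes. They lay wholly below for 2, EGFR and MET, beside 16.8% of genes.

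AREG was at 92.0, 210 and 204 CPM in TNctrl replicates 1, 2 and 3 and at 258, 480 and 466 CPM in TN. Replicate 1 was the lowest in both groups, and TN exceeded DMSO by 2.80-, 2.28- and 2.29-fold within replicates 1, 2 and 3. Without a block the log2 fold change was 1.25 (SE 0.38, interval 0.36 to 2.15; adjusted p 0.0960), and with the block it was 1.29 (SE 0.14; adjusted p 0.000653).
HBEGF went from 5.04, 8.60 and 7.49 CPM to 11.7, 16.9 and 15.9 CPM, so that every replicate was at least 1.96-fold higher in TN. Its log2 fold change was 1.07 (SE 0.29; adjusted p 0.0720) without and 1.09 (SE 0.20; adjusted p 0.00621) with the block. TGFA, at 42.7, 62.6 and 65.0 CPM in TNctrl and 69.5, 107 and 104 CPM in TN, was 1.63-, 1.71- and 1.60-fold higher within the replicates. The log2 fold change of TGFA was 0.72 in both fits, with an adjusted p of 0.151 (SE 0.27) without and 0.00837 (SE 0.14) with the block.

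EREG again followed the replicate number, at 199, 635 and 621 CPM in TNctrl and at 172, 751 and 751 CPM in TN. Its log2 fold change was 0.20 (SE 0.62, interval -1.24 to 1.64; adjusted p 0.880), and 0.10 (SE 0.15; adjusted p 0.636) with the block. Without TN replicate 1 the log2 fold changes of AREG, HBEGF and TGFA were 1.55, 1.27 and 0.94, with adjusted p of 0.0184, 0.0176 and 0.0200, in the fit without a block, where the share of all genes called was 15.8%. With scaling to total counts, which includes the larger RN7SL1 share of TN, AREG was at 1.13, HBEGF at 0.94 and TGFA at 0.59, and a part of RN7SL1 in the TN results was not tested beyond this.

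The longest EREG transcript has a GC content of 36.1%, the lowest of the 10. In OActrl replicates 1, 2 and 3, where gene levels correlated with GC content by -0.69, 0.62 and -0.08, EREG was at 467, 138 and 247 CPM, and in OA, with -0.62, 0.50 and 0.04, at 796, 234 and 222 CPM. In TNctrl, with 0.49, -0.34 and -0.48, it was at 199, 635 and 621 CPM, and in TN, with 0.68, -0.57 and -0.62, at 172, 751 and 751 CPM. Within each group the library with the lowest correlation had the highest level, or shared it, except in TNctrl, and the order of the others did not follow it throughout. The longest AREG transcript has a GC content of 45.3%. A part of GC content in the levels of either gene was tested only by a correction. With GC content corrected by a per-library offset, the EREG log2 fold change in OA was 1.05 with an adjusted p of 0.0376, in TN 0.40 with an adjusted p of 0.286, and in TN with the block 0.41 with an adjusted p of 0.00602. The EREG call in OA thus changed with this correction, while AREG in OA passed the test with it as well, at 2.46 with an adjusted p of 0.00228. The AREG call in TN without a block also changed, from an adjusted p of 0.096 to 1.34 with an adjusted p of 0.026. In that TN fit 22.3% of all genes were called.

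**Figure D2:**
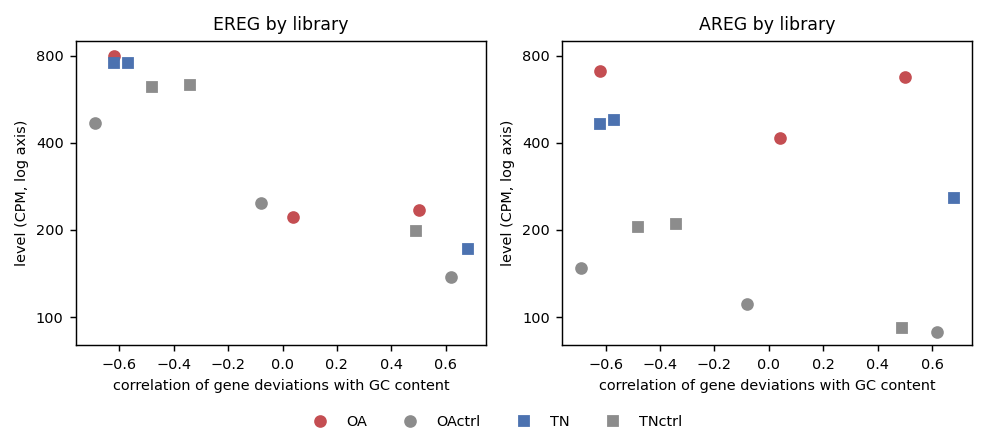
Level in CPM (vertical log axes) of EREG and AREG in the 12 libraries against each library's correlation, across genes, between the deviation from the group mean and GC content (horizontal axes). EREG is at 467 CPM in OActrl replicate 1 at a correlation of -0.69, the lowest, and at 172 CPM in TN replicate 1 at 0.68, the highest, and AREG is at 148 and 258 CPM in the same libraries.

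Among the receptors, 0 of 6 passed the edgeR test without a block in OA, where the median log2 fold change was 0.26, against 1.5 for the 4 ligands and -0.02 for all genes. No receptor reached an unadjusted p under 0.05 in OA, beside 23.3% of all genes, and DESeq2 called 0, beside 5.77% of the 28461 genes to which it gave a p. In TN 0 of 6 passed without a block, beside 6.99% of all genes, and the median was -0.03. EGFR alone had an unadjusted p under 0.05, which is 1 of 6 beside 24.3% of all genes, and DESeq2 called 0, beside 6.17%. EGFR, which binds all 4 ligands, was at 41.4, 23.7 and 43.2 CPM in OActrl and at 68.9, 35.2 and 56.3 CPM in OA. Replicate 2 was the lowest in both groups, which overlapped. Its log2 fold change was 0.57 (SE 0.35, interval -0.22 to 1.36; adjusted p 0.360). With the replicate number as a block it was 0.56 (adjusted p 0.048), beside 26.7% of all genes called in that fit. In OA this block was not taken as a pairing, because replicate 3 correlated by only 0.09, under a limit of 0.1.

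In TN the EGFR transcript lay lower, at 21.1, 27.1 and 20 CPM against 29.7, 52.9 and 40.4 CPM in TNctrl. The highest TN library was below the lowest DMSO library, and the level was 0.709, 0.512 and 0.496 of DMSO within replicates 1, 2 and 3. The log2 fold change was -0.85 (SE 0.27, interval -1.49 to -0.21; adjusted p 0.108), and it passed the test with the block at -0.83 (SE 0.17; adjusted p 0.0102). The antisense gene EGFR-AS1, which shares 186 exonic bases with EGFR, had 0 counts in all 12 libraries.

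ERBB2, the family member without a known ligand of its own, was nearly level, at 61.7, 78.2 and 68.0 CPM in OActrl and at 62.2, 77.3 and 74.0 CPM in OA. Its log2 fold change was 0.04 (SE 0.23, interval -0.49 to 0.56; adjusted p 0.933), and the sign turned under 4 other processing settings. In TN it was 0.18 (SE 0.29, interval -0.50 to 0.86), with replicate 1 at 97.8 CPM and the others at 53.3 and 58.7 CPM, the latter pair inside or near the DMSO range of 53.6 to 75.2 CPM. ERBB2 shares 571 exonic bases with MIEN1 and 144 with PGAP3 on the opposite strand, and the strand column behind the counts is not given in the sources used here.
ERBB3, a receptor of neuregulins that signals mainly through its partners, went from 31.4, 34.4 and 34.2 to 34.1, 45.3 and 46.9 CPM in OA and from 35.6, 31.2 and 31.4 to 64.3, 35.5 and 35.1 CPM in TN. The groups overlapped in both experiments, and TN replicate 1 stood apart from the other TN libraries. The log2 fold changes were 0.34 (SE 0.24; adjusted p 0.435) in OA and 0.46 (SE 0.28; adjusted p 0.378) in TN. Without TN replicate 1 the TN value was 0.15.

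MET had the highest level of the 6 receptors per kilobase in every group. It was at 339, 306 and 315 CPM in OActrl and at 385, 183 and 305 CPM in OA, a wide spread around a log2 fold change of -0.14 (SE 0.29; adjusted p 0.808). In TN it was at 237, 352 and 348 CPM, below the 356, 377 and 382 CPM of TNctrl. The groups did not overlap, yet the log2 fold change was only -0.25 (SE 0.21, interval -0.75 to 0.25; adjusted p 0.530), and -0.04 without TN replicate 1.

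IGF1R and INSR, which share ligands and signal through insulin receptor substrates, did not pass the test in either comparison. INSR was at 28.1, 23.4 and 27.4 CPM in OActrl and at 38.1, 23.2 and 41.4 CPM in OA, with a log2 fold change of 0.38 (SE 0.29; adjusted p 0.456). In TN, at 30.0, 30.0 and 27.8 CPM, it lay above the 21.5 to 25 CPM of TNctrl in every library, by a log2 fold change of 0.31 (SE 0.19, interval -0.13 to 0.76; adjusted p 0.369). The size was small beside its error despite the lack of overlap. IGF1R ranged from 2.92 to 6.64 CPM over all libraries, and its log2 fold changes were 0.18 (SE 0.32; adjusted p 0.774) in OA and -0.35 (SE 0.33; adjusted p 0.579) in TN.

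**Figure D3:**
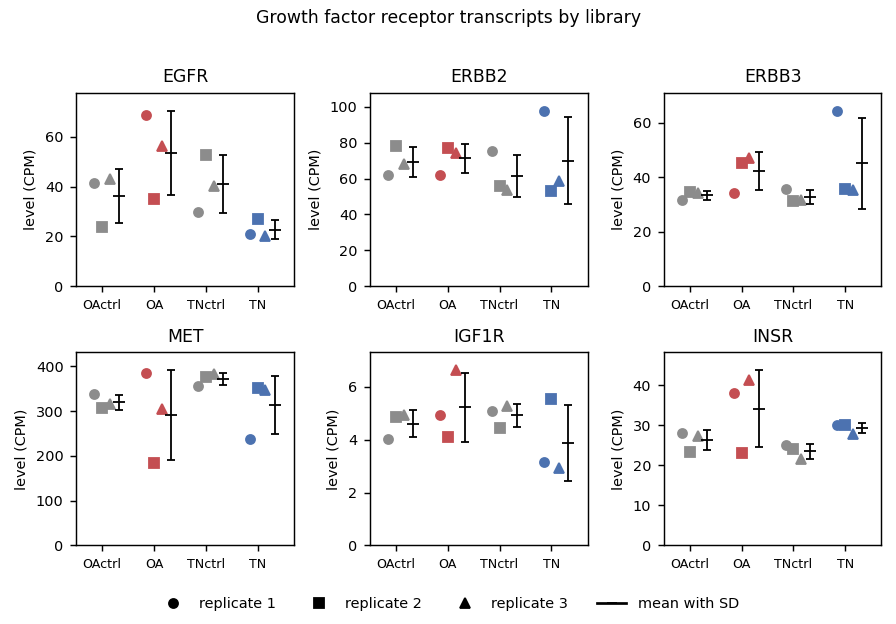
Level in CPM (vertical axes, each starting at 0) of the 6 receptor transcripts in every library of the 4 groups, with the mean and SD of each group beside its 3 libraries. EGFR lies at 20 to 27.1 CPM in TN, below all TNctrl libraries, and single libraries such as TN replicate 1 of ERBB2 and ERBB3 and OA replicate 2 of MET stand off from the others of their group.

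**Figure D4:**
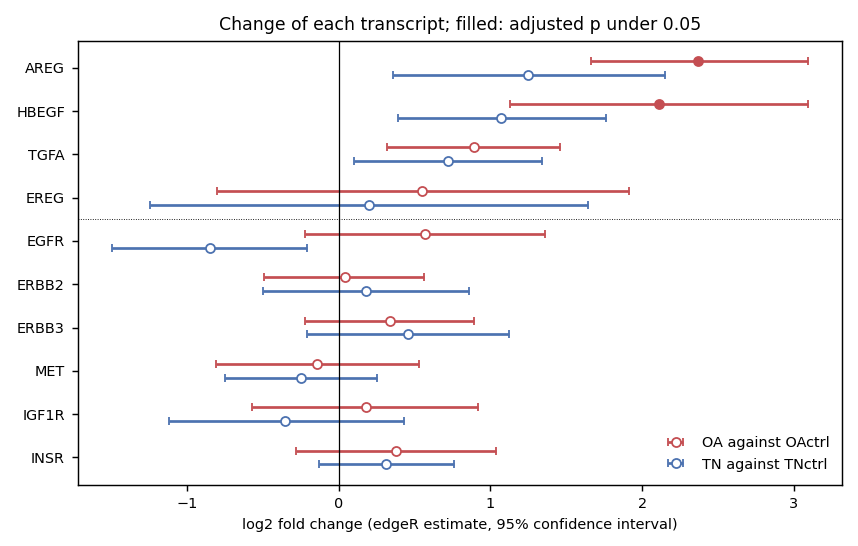
Log2 fold change with its 95% confidence interval (horizontal axis) of each ligand and receptor, in OA against OActrl and in TN against TNctrl, from the edgeR fits without a block. Filled points mark an adjusted p under 0.05, which AREG at 2.37 and HBEGF at 2.11 have in OA, and a dotted line separates the ligands from the receptors.

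The second question was whether a member responded differently to the 2 stressors, tested as the OA change minus the TN change over all 12 libraries. EGFR had the largest difference, 1.36 on the log2 scale (SE 0.47, interval 0.33 to 2.39), with an unadjusted p of 0.0138 and an adjusted p of 1 in edgeR. AREG followed at 1.03 (SE 0.51, interval -0.09 to 2.14) and HBEGF at 0.91 (SE 0.51, interval -0.20 to 2.02). No member passed the adjusted test, beside 0% of the 15429 genes tested, and DESeq2 called 0 members, also beside 0% of genes. At an unadjusted p under 0.05 there was 1 member, EGFR, beside 2.26% of all genes. For TGFA the difference was 0.10 (interval -0.74 to 0.94), and for EREG the interval ran from -1.86 to 2.43, so that even a sizeable difference could not be seen for EREG. The larger AREG and HBEGF changes in OA were thus not shown to differ from those in TN.

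Tunicamycin blocks N-glycosylation, so the acceptor sites in the proteins were counted as a description, since glycosylation was in view when the receptors were chosen. A sequon, asparagine followed by any residue but proline and then serine or threonine, was counted in the protein of each canonical GENCODE v44 transcript. INSR held 19 sequons in 1382 residues, MET and IGF1R 17 each, EGFR 15 in 1210, ERBB3 10 and ERBB2 9. Among the ligand precursors, AREG had 3 in 252 residues, EREG and TGFA 1 each, and HBEGF 0 in 208. Per 100 residues INSR had 1.37, EGFR and IGF1R 1.24, MET 1.22 and AREG 1.19, against a median of 0.41 and a 95th percentile of 1.32 over 19755 proteins. All 4 ligands held the spacing of 6 cysteines of an EGF domain. These counts cover whole chains, so that sequons in the cytoplasmic part, which are not glycosylated, are included. The log2 fold changes of the receptor transcripts in TN, in order of sequons per residue, were 0.31 for INSR, -0.35 for IGF1R, -0.85 for EGFR, -0.25 for MET, 0.46 for ERBB3 and 0.18 for ERBB2. A relation between sequons and transcript change was not tested, and protein or glycan levels were not measured in these data.

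The other genes of the pathway were read from 7 lists, 112 genes in all, of which 90 were tested in OA and 92 in TN. With OA 7 rose and 1 fell, and with TN 5 rose and 3 fell, beside the 4.48% and 6.99% of all genes called in each comparison. The median log2 fold change of the listed genes was 0.05 in OA and 0.07 in TN. In the TN fit with the block 20 rose and 7 fell, beside 27.1% of all genes. Fits with a library left out are not given for the listed genes. In OA only 5, 3 and 3 genes of all tested were called without OActrl replicate 1, 2 and 3, so that nearly all OA calls depended on each of these libraries.

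Few of the other ligands were measured well enough to test. Of 8 further genes, the remaining ERBB ligands and the receptor ERBB4, 3 had enough counts to be tested in OA and 4 in TN. In the edgeR fits without a block 0 passed. At an unadjusted p under 0.05 there were 2 in OA and 1 in TN, beside 23.3% and 24.3% of all genes. DESeq2 called 0 in each, beside 5.77% and 6.17%. BTC, betacellulin, was at 1.83 ± 0.898 CPM in OActrl and 4.62 ± 1.77 CPM in OA (log2 fold change 1.35, adjusted p 0.160), and at 7.56 ± 4.52 and 10.7 ± 7.63 CPM in TNctrl and TN (0.51, adjusted p 0.743). NRG2, a neuregulin, went the other way, from 1.93 ± 0.153 to 0.586 ± 0.415 CPM in OA (-1.75, adjusted p 0.125), and the median of the list was -1.5 in OA and 0.67 in TN. EGF itself went from 0.529 ± 0.252 to 1.98 ± 0.369 CPM in TN (1.87, adjusted p 0.0687), and passed with the block (1.92, adjusted p 0.0392). The ligands HGF, IGF1, IGF2 and INS, which act on MET, IGF1R and INSR, had too few counts to be tested. Of the 3 tested genes of that list 0 passed without a block in either comparison. At an unadjusted p under 0.05 there were 1 in OA and 2 in TN, beside 23.3% and 24.3% of all genes. DESeq2 called 0 and 1, beside 5.77% and 6.17%. IGF2R, which clears IGF2, was at 67.7 ± 7.23 CPM in OActrl and 119 ± 15.7 CPM in OA (0.81, adjusted p 0.0835), and at 63.9 ± 2.07 and 95.4 ± 11.4 CPM in TNctrl and TN (0.58, adjusted p 0.117, and 0.57 with an adjusted p of 0.0275 with the block). The more abundant IGFBP2, which binds insulin-like growth factors, had -0.42 in OA (adjusted p 0.371) and -0.10 in TN (adjusted p 0.888). IGFBP6, another such binding protein and named after its values were seen, was at 31.4 ± 16 and 71.3 ± 50.8 CPM in OActrl and OA (1.18, adjusted p 0.245) and at 26.7 ± 3.39 and 68.2 ± 29.9 CPM in TNctrl and TN (1.35, adjusted p 0.0509, and 1.28 with an adjusted p of 0.00533 with the block).

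The next list covered proteases that release ligands or cleave receptors and their ligands, and regulators of such proteases, among them the inhibitors SPINT1 and SPINT2. Of its 12 tested genes 0 passed in OA or in TN by edgeR without a block. At an unadjusted p under 0.05 there were 5 in OA and 4 in TN, beside 23.3% and 24.3% of all genes. DESeq2 called 2 in each, beside 5.77% and 6.17%. With the block 3 rose in TN, ADAM17 and the inhibitors SPINT1 and SPINT2, beside 27.1% of all genes called. SPINT2, an inhibitor of the proteases that activate hepatocyte growth factor, had a log2 fold change of 0.94 in OA (adjusted p 0.106) and 0.91 in TN (adjusted p 0.0509, and 0.00197 with the block). The membrane protease genes ADAM15 in OA and ADAM9 in TN each had -0.20 (adjusted p 0.708 and 0.868). ADAM17, named here after its values were seen, was at 56.9 ± 9.9 and 118 ± 34.0 CPM in OActrl and OA and at 68.8 ± 14.8 and 156 ± 54.3 CPM in TNctrl and TN. Its log2 fold changes of 1.05 and 1.19 had adjusted p of 0.0739 and 0.0723, and with the block the TN value was 1.14 with an adjusted p of 0.00177. The related ADAM10 had -0.42 in OA (adjusted p 0.704) and 0.09 in TN (adjusted p 0.932). ADAM9 had -0.53 in OA (adjusted p 0.542) and ADAM15 0.26 in TN (adjusted p 0.655). The release of ligands was not measured in these data.

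Among 24 adaptors and kinases of the signaling cascade, SHC1 and IRS2 rose in OA and SHC1 rose in TN, beside 4.48% and 6.99% of all genes called. At an unadjusted p under 0.05 in edgeR there were 2 in OA and 3 in TN, beside 23.3% and 24.3% of all genes. DESeq2 called 2 in each, beside 5.77% and 6.17%. SHC1, an adaptor that links receptors to RAS, went from 120 ± 10.8 to 249 ± 37.9 CPM in OA (1.05, SE 0.23, adjusted p 0.0429) and from 108 ± 17.1 to 230 ± 58.6 CPM in TN (1.09, SE 0.25, adjusted p 0.0426). IRS2, a docking protein of INSR and IGF1R, went from 2.01 ± 0.473 to 6.62 ± 1.63 CPM in OA (1.72, adjusted p 0.0405). The more abundant PTPN11 and AKT1 did not pass, PTPN11 with -0.63 in OA (adjusted p 0.488) and -0.32 in TN (adjusted p 0.664) and AKT1 with -0.49 in OA (adjusted p 0.278). With the block 3 genes of this list rose in TN and 0 fell, beside 27.1% of all genes called.

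Of 18 negative regulators, DUSP5 and GRB10 rose with both stressors, beside 4.48% of all genes called in OA and 6.99% in TN. At an unadjusted p under 0.05 in edgeR there were 7 in OA and 5 in TN, beside 23.3% and 24.3% of all genes. DESeq2 called 5 in OA and 3 in TN, beside 5.77% and 6.17%. DUSP5, a nuclear phosphatase of ERK, went from 179 ± 12.6 to 1020 ± 537 CPM in OA (2.5, SE 0.37, adjusted p 0.0212) and from 177 ± 60.2 to 518 ± 55.6 CPM in TN (1.55, SE 0.30, adjusted p 0.0249). As for HBEGF, OA replicate 2 was the highest, at 1640 CPM against 726 and 686 CPM in the others. GRB10, an adaptor that restrains INSR and IGF1R, went from 22.2 ± 1.08 to 78.1 ± 24.5 CPM in OA (1.81, adjusted p 0.0222) and from 26.1 ± 4.32 to 55.0 ± 6.55 CPM in TN (1.07, adjusted p 0.0313). ERRFI1, which binds the EGFR kinase domain and inhibits it, had 1.42 in OA (adjusted p 0.0692) and 0.89 in TN (adjusted p 0.0584, and 0.00174 with the block). With the block 5 genes of this list rose and 2 fell in TN, beside 27.1% of all genes called.

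Of 11 transcripts known to be induced by ERK signaling, IER3 and ETV5 rose in OA, while in TN ETV5 rose and MYC fell. These calls stood beside 4.48% of all genes in OA and 6.99% in TN. At an unadjusted p under 0.05 in edgeR there were 7 in OA and 3 in TN, beside 23.3% and 24.3% of all genes. DESeq2 called 4 in OA and 2 in TN, beside 5.77% and 6.17%. ETV5, an ETS transcription factor, went from 69.6 ± 4.89 to 174 ± 64.9 CPM in OA (1.32, adjusted p 0.0471) and from 74.0 ± 9.60 to 145 ± 27.8 CPM in TN (0.97, adjusted p 0.0443). IER3 was at 321 ± 9.25 CPM in OActrl and 884 ± 341 CPM in OA (1.46, adjusted p 0.0385). OA replicate 2 was again the highest OA library for both, at 1280 CPM of IER3 and 249 CPM of ETV5, as it was for SHC1, IRS2 and GRB10, and the part of this library's RN7SL1 share or other markers was not tested. MYC fell from 220 ± 31.9 to 96.8 ± 22.4 CPM in TN (-1.19, SE 0.24, adjusted p 0.0292). The median of the list was 0.99 in OA and -0.02 in TN, and its most abundant genes that did not pass were CCND1 at -0.38 and DUSP6 at 0.45 in OA and IER3 and CCND1 in TN. There IER3 was at 309 ± 79.1 CPM in TNctrl and 532 ± 97.5 CPM in TN (0.78, adjusted p 0.116, and 0.80 with an adjusted p of 0.0343 with the block), and CCND1 at -0.31. DUSP6 was at -0.43 in TN. With the block 2 genes of this list rose and 1 fell in TN, beside 27.1% of all genes called.

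Among the other receptor tyrosine kinases, FGFR3, a fibroblast growth factor receptor, fell with both stressors. It went from 26.3 ± 3.86 to 8.4 ± 3.77 CPM in OA (-1.65, SE 0.38, adjusted p 0.0495) and from 21.1 ± 1.87 to 8.22 ± 1.85 CPM in TN (-1.36, SE 0.26, adjusted p 0.0242). MERTK rose in OA, from 6.67 ± 1.44 to 17.3 ± 3.76 CPM (1.37, adjusted p 0.0495). Its TN value was 0.76 (adjusted p 0.153), and 0.74 with an adjusted p of 0.0305 with the block. In TN, LTK rose from 2.13 ± 0.225 to 6.38 ± 1.89 CPM (1.57, adjusted p 0.0320) and EPHA4 fell from 18.2 ± 2.46 to 8.46 ± 1.62 CPM (-1.11, adjusted p 0.0430). In OA, LTK had 1.6 (adjusted p 0.0831) and EPHA4 -0.09 (adjusted p 0.95). These 4 were among 22 tested in OA and 23 in TN, beside 4.48% and 6.99% of all genes called. At an unadjusted p under 0.05 in edgeR there were 6 in OA and 7 in TN, beside 23.3% and 24.3% of all genes. DESeq2 called 5 in OA and 4 in TN, beside 5.77% and 6.17%. With the block 4 rose and 4 fell in TN, beside 27.1% of all genes. The most abundant that did not pass were PTK7 at -0.25 and EPHA2 at 1.16 in OA (adjusted p 0.709 and 0.0705) and PTK7 at -0.12 and DDR1 at 0.62 in TN (adjusted p 0.814 and 0.107, and 0.0161 for DDR1 with the block). FGFR3 was the only receptor tyrosine kinase of the lists and the members to pass the edgeR test without a block in both comparisons. Its adjusted p of 0.0495 in OA lay just under the threshold.

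Among the genes whose pattern was most like that of AREG over the 12 libraries were GPAT3 (r = 0.968) and the noncoding LUCAT1 (r = 0.968). For HBEGF, the member of lowest p in TN, they were MON1B (r = 0.980), DUSP5 (r = 0.980) and SDC4 (r = 0.978). The measure was Pearson's r of log2 CPM taken as the difference from the mean of the DMSO libraries of the same stressor, and 8991 genes with a mean of at least 10 CPM were searched. The libraries are shared by all genes, with their depth and their spread in GC content, and r is given as a description only.

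**Figure D5:**
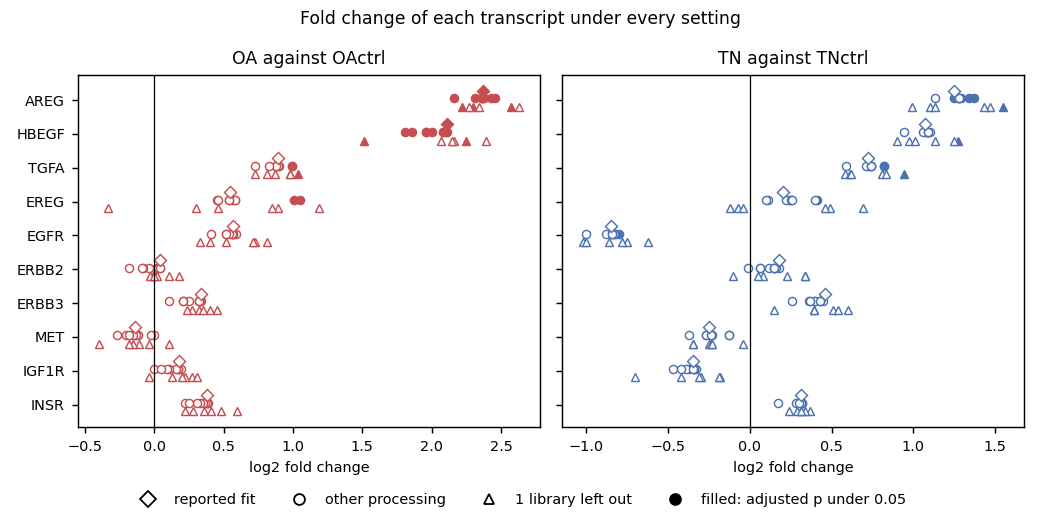
Log2 fold change (horizontal axes) of each member in OA and in TN in the reported fit (diamonds), under other processing (circles) and with 1 library left out (triangles), filled where the adjusted p was under 0.05. AREG stays between 2.16 and 2.63 in OA, whereas EREG runs from -0.33 to 1.19 and EGFR in TN from -1.02 to -0.62.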

How the data were processed

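Stranded libraries were made from total RNA. The authors used the STAR aligner with hg38 and a Gencode annotation, and deposited unnormalized counts per gene. The strand column is not given in the sources used here. The deposited tables also hold the authors' DESeq2 comparisons (mean level, log2 fold change, standard error, test statistic, p-value), which were not used. The methods state 10 µg/mL for OA, the labels 5 µg/mL.

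Counts were scaled by TMM (CPM) and filtered by filterByExpr. OA and TN were tested separately in R 4.3.3 by edgeR 4.0.16 (quasi-likelihood, two-sided), and p-values were adjusted across the tested genes by Benjamini-Hochberg, with a threshold of 0.05. Their difference was a contrast over all 12 libraries. Intervals are 95%. Fold changes are edgeR estimates. No 2 libraries of a group agreed within sampling noise. Deviations of libraries with the same number correlated by 0.64, 0.41 and 0.43 across genes in TN (replicates 2 and 3 crossed 0.38 and 0.44). TN is therefore also reported with a replicate block. In OA the same numbers gave 0.62, 0.54 and 0.09, and its blocked fit is given as an alternative. The main fit of both stressors had no block. On simulated counts the OA and TN fits recovered 72% and 84% of 100 genes changed 4-fold, and 3% and 11% of those changed 2-fold.

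Exon lengths, GC content and proteins came from GENCODE v44 (GRCh38), promoter windows from RefSeq, with an entry for 9 of 10 members (11 windows). The members and lists were chosen with earlier results of these data known. All members were named, and from each list the genes past the threshold, at most 3, and up to 2 abundant ones that were not, and the 3 genes most alike a leading member. Some genes that this rule names are not reported here. The alternatives were DESeq2 1.42.0, its size factors, total counts, other count filters, 1 fit of all libraries, a replicate block, GC offsets (span 0.3, genes with a mean count of at least 20) and leaving out each library.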

Additional observations from a re-analysis of the deposited data

How the results depend on the processing

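In OA, DESeq2, the other scalings, the other filters and 1 fit of all 12 libraries called the same 2 members, AREG and HBEGF. The share of all genes called in these fits ran from 4.58% to 10.9%, the latter in the fit of all 12 libraries. A replicate block called 4 (EGFR, AREG, TGFA and HBEGF, beside 26.7% of all genes), a GC offset 4 (AREG, EREG, TGFA and HBEGF, beside 16.4%) and both together 4 (beside 25.8%). Leaving out 1 library gave 0 to 3 members, beside 0.02% to 7.57% of all genes. Replicate numbers in OA correlated by 0.62, 0.54 and 0.09, the last under a limit of 0.1, so this block was not taken as a pairing. The crossed pairs in OA were at most 0.15, while TN replicates 2 and 3 crossed at 0.38 and 0.44. By these values the numbering does not set TN clearly apart from OA, and the blocked calls of both are to be read as alternatives. In TN, DESeq2 called 2 members (beside 6.17%), no filter 1 (beside 5.85%), the replicate block 4, a GC offset 4 (beside 22.3%) and the GC offset with the block 6 (EGFR, ERBB3, AREG, EREG, TGFA and HBEGF, beside 37.4%), and leaving out 1 library 0 to 3, the 3 without TN replicate 1, where 15.8% of all genes were called against 1.01% to 3.16% without another library. The cause was not tested. The difference between stressors had 0 calls among members throughout.

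Over the 9 other settings the adjusted p in OA was 4.22e-09 to 0.0276 for AREG, 1e-04 to 0.0404 for HBEGF, 0.00547 to 0.218 for TGFA and 0.0104 to 0.733 for EREG, and in TN 1.94e-05 to 0.171 for AREG, 0.00149 to 0.140 for HBEGF, 0.000301 to 0.307 for TGFA, 0.00602 to 0.941 for EREG and 0.00142 to 0.152 for EGFR. With 30 to 123 counts per library, IGF1R was the member most limited by depth.

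The following directions turned. ERBB2 in OA was -0.18 under total counts, -0.04 in the fit of all libraries, -0.08 with the GC offset, -0.09 with offset and block, and -0.03 to 0.18 without 1 library. IGF1R in OA was -0.0004 under total counts and -0.04 to 0.31 without 1 library, MET in OA 0.0005 with the GC offset and -0.40 to 0.11, EREG in OA -0.33 to 1.19, EREG in TN -0.12 to 0.69, and ERBB2 in TN -0.01 under total counts and -0.10 to 0.34. The OA minus TN difference was -0.04 (block) and -0.05 (offset and block) for INSR, and without 1 library -0.13 to 0.26 for INSR, -0.27 to 0.32 for MET, -0.69 to 0.81 for EREG, -0.12 to 0.28 for TGFA, -0.40 to 0.18 for ERBB2 and -0.29 to 0.23 for ERBB3. Total counts moved the median of all genes to -0.23 in OA and -0.18 in TN.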
